A study of Mus musculus with 14 samples.

Results

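Glutathione, thioredoxin and antioxidant enzymes were described here in papillary adenocarcinomas that arose in the lungs of SPC/c-Myc-transgenic animals, and in control lung. Their members were all probe sets of the Affymetrix U74v2 array with a single platform gene symbol beginning with Gsta, Gstm, Gstp, Gstt, Gsto, Gstz, Mgst, Gpx, Prdx or Txn, together with Gclc, Gclm, Gsr, Gss, Nqo1, Hmox1, Hmox2, Cat and the Sod genes. The rule used names and no measured value, and it found 67 probe sets of 50 genes among 12422 probe sets on the array. The 14 arrays comprised 10 tumor samples and 4 control lungs. There were 3 arrays of small tumors (about 1 mm), each a pool of 3 to 4 tumors from 1 animal, 4 arrays of middle-sized tumors (about 4 to 5 mm) and 3 arrays of large tumors (10 mm or more), and each array of these 2 sizes held a single tumor of its own animal. Tumor mice were hemizygous for c-Myc driven by the surfactant protein C promoter, which is active in respiratory epithelium, and control lungs came from 4 non-transgenic mice of the same CD2F1-(DBA/2xBalb/C) background. All mice were 9 to 13 months old. The controls were whole lung of many cell types and the tumors were dissected nodules, and all comparisons with control lung use the same 4 arrays.

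Reduced glutathione, the cell's main thiol, is made from glutamate, cysteine and glycine by glutamate-cysteine ligase (Gclc and Gclm) and glutathione synthetase (Gss), and is restored from its oxidized form by glutathione reductase (Gsr). Glutathione S-transferases couple it to reactive compounds, and glutathione peroxidases use it to reduce peroxides. The thioredoxin system works in parallel, with thioredoxin reductases passing electrons from NADPH to thioredoxins, which in turn recharge the peroxiredoxins. Superoxide dismutases and catalase remove superoxide and hydrogen peroxide directly, and many of these genes respond to the transcription factor NRF2 in liver and lung.

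Expression was read as the MAS5 signal, a linear intensity scaled to the same target on each array, so that a value is relative to the other transcripts of that array. Between 6796 and 7575 probe sets reached a signal of 70 on 13 arrays, and 5630 did on the array of middle tumor 3, where 25.2% of the signals were listed at 0 and were treated as missing. With those zeros counted, the trimmed mean signal was 196 on that array and 250 on each of the other 13. Whether its scale differs from theirs was not tested. The missing values there included 21 of the 67 member probe sets, so that only 3 of the 4 middle tumors have a value for them. The Myc probe set read 325 to 2165 in the tumors and 24.1 to 35.6 in control lung. In each size the surfactant transcript Sftpc, a marker of type II cells, was present (7768 to 10550 over the 10 tumors). The 7 type II markers summed reached 23462 to 43721 in tumors and 21795 to 30588 in control lung.

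Markers of other cell types moved with the tumors. Of 13 endothelial markers tested, 12 fell, and their summed signal was 1940 to 3594 in tumors and 21778 to 27306 in control lung. All 8 alveolar type I, all 8 smooth muscle and all 4 erythroid markers tested fell as well, as did 8 of 14 of fibroblasts and matrix, while 2 of 7 type II markers rose and none fell. Cardiac muscle (7 of 8), lymphocyte (3 of 5), neutrophil and mast cell (4 of 7) and ciliated markers (1 of 4) also held falls. Club cell markers summed to 3383 to 20014 in tumors and 17755 to 27901 in control lung, with 2 of 6 lower. Macrophage markers summed to 7841 to 13078 in tumors and 10267 to 12399 in control lung, with 1 of 13 higher and 3 lower. Of all probe sets tested, 22.7% rose and 20.8% fell, so that the type II, club and ciliated cell counts and the macrophage falls lie near the background. In such bulk samples fewer cells of a type and less RNA per cell cannot be told apart, and the part of cell type content in the results below was not tested.

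**Figure D1:**
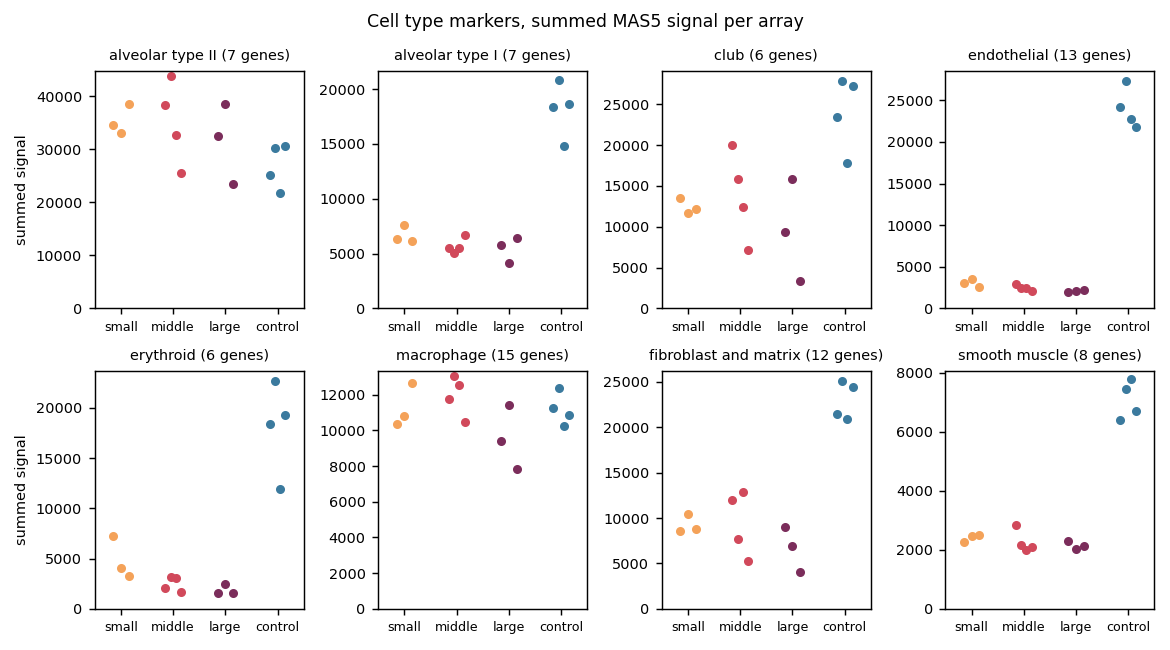
Summed signal of the markers of 8 cell types on each array, by group, 1 point per array. The endothelial sums of all 10 tumors (1940 to 3594) lie below those of the 4 control lungs (21778 to 27306), while the macrophage sums overlap.

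The members moved in both directions. In tumors against control lung, 15 of the 53 member probe sets tested rose and 10 fell at an adjusted p under 0.05 (limma, Benjamini-Hochberg over all 8127 probe sets tested). Over all probe sets tested, 22.7% rose and 20.8% fell, so that both shares lie near the background, and the median log2 fold change was 0.10 over the members and 0.03 over all probe sets. The 15 rises were those of theta and zeta transferases, 1 mu-class probe set (Gstm5), the microsomal transferase Mgst2, Gsr, peroxiredoxins, thioredoxins and their reductases, Txndc5 and Txnl4a. The 10 falls were those of 2 alpha transferases, 2 mu-class probe sets (Gstm1 and Gstm2), 3 glutathione peroxidases, extracellular superoxide dismutase, Gclm and Txndc16. When arrays were scaled to 1 median instead of the deposited scale, the calls were 18 higher and 6 lower, with 26.8% of all probe sets tested higher and 17.2% lower and a median log2 fold change over all of 0.13. The median of middle tumor 3 was taken without its missing values. Their probe sets had lower signals on the other 13 arrays (median 48.8, against 126 for the rest). What this did to the calls was not tested. The 14 other member probe sets did not reach 70 on 3 arrays and were not tested, and all 50 genes are accounted for below. Called members outside the naming rule were named after their values had been seen.

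**Figure D2:**
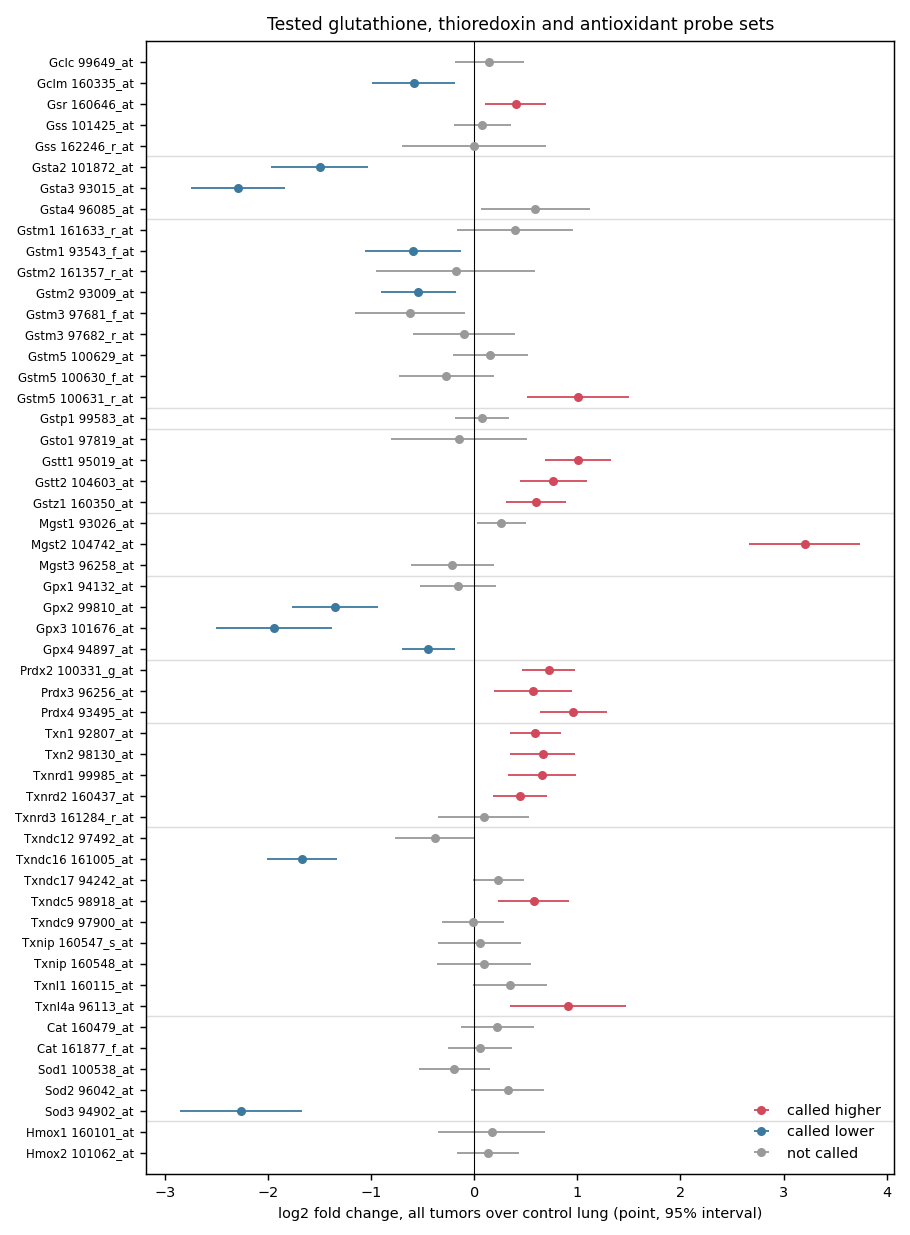
Log2 fold change of tumors over control lung for the 53 tested member probe sets, with 95% intervals, grouped by family from glutathione synthesis at the top to heme oxygenases at the bottom, with called rises in red, called falls in blue and the others in grey. Mgst2 stands at 3.21 and Gsta3 and Sod3 at -2.29 and -2.26.

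Promoter sequence is shown for 6 of the 7 called genes whose 250 bases before the start hold a motif tied to NRF2, c-Myc or AP-1. In the 250 bases before the start in the RefSeq table (GRCm38.p6), which held 42 of the 50 genes, both strands were searched for the antioxidant response element core TGACNNNGC, the E-box CACGTG bound by c-Myc and Max, and the AP-1 site TGANTCA. The antioxidant core was found for 7 genes, 3 of them with a called rise (Gstm5, Txndc5 and Txnrd1), 2 with a called fall (Gclm and Gsta3) and 2 without a call (Mgst1 and Sod1). An E-box was found for 2 genes, Prdx4 and Txndc9, and an AP-1 site for 3, Gstm5, Gstp1 and Mgst2. Of all 27025 genes in the table, 11.5% had the antioxidant core, 6.86% the E-box and 7.82% the AP-1 site. Such matches are descriptions of the letters only. The 6 sequences are given below with these letters in capitals.

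Of the glutathione synthesis and recycling genes, Gsr rose, Gclm fell, and Gclc and Gss were not called. Gclm, the regulatory subunit of glutamate-cysteine ligase, read 169, 204 and 153 in small, 181, 143 and 211 in middle and 144, 149 and 191 in large tumors, against 293, 346, 219 and 191 in control lung. Of 9 tumors with a value 7 lay below the lowest control, and the fall (log2 fold change -0.59 ± 0.19 SE, adjusted p = 0.021) lost its call without control lung 1 or control lung 2 and under scaling to 1 median (log2 -0.52 to -0.44, adjusted p = 0.076 to 0.097). Gsr, the reductase that regenerates glutathione, read 609, 591 and 584 in small, 927, 619 and 694 in middle and 775, 626 and 740.4 in large tumors, against 483, 668, 448 and 477 in control lung, where control lung 2 stood above the other controls. Its rise (log2 fold change 0.40 ± 0.14 SE, adjusted p = 0.028) lost its call in 5 alternatives, among them leaving out control lung 1, 3 or 4. The catalytic subunit Gclc (log2 fold change 0.14 ± 0.16 SE, adjusted p = 0.5) and both probe sets of Gss (log2 0.08 and -0.00) were not called. The Gclm promoter carries the antioxidant core on the minus strand, 134 to 126 bases before the start (chr3:122245307-122245556, plus strand).
Gclm: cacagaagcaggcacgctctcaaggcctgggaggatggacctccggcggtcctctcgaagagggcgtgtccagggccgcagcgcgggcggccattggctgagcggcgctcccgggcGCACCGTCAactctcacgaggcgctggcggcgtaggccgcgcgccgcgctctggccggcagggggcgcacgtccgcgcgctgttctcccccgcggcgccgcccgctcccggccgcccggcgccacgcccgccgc

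The alpha-class transferases Gsta3 and Gsta2 fell, and Gsta4 did not pass the test. Gsta3, which in mouse detoxifies aflatoxin epoxide, read 60.5, 68.0 and 62.9 in small, 132, 52.3, 86.1 and 70.01 in middle and 51.9, 49.4 and 79.8 in large tumors, against 626, 387, 267 and 299 in control lung. All 10 tumors lay below all 4 controls, and only 4 of the 10 reached 70. Means were 71.3 ± 24.5 (SD, n = 10) in tumors and 395 ± 162 (SD, n = 4) in control lung (log2 fold change -2.29 ± 0.21 SE, adjusted p = 1.0e-06), and since signals under 70 were set to 70, the fitted change understates the fall. Gsta2, another alpha transferase, read 107, 111 and 109.6 in small, 179, 71.8, 137 and 60.4 in middle and 128, 131 and 109.7 in large tumors, against 334, 299.9, 287 and 353 in control lung (log2 fold change -1.50 ± 0.22 SE, adjusted p = 7.4e-05), again without overlap. Gsta4, which conjugates the lipid peroxidation product 4-hydroxynonenal, averaged 474 ± 164 (SD, n = 10) in tumors and 311 ± 116 (SD, n = 4) in control lung and was not called over all tumors (log2 fold change 0.59 ± 0.25 SE, adjusted p = 0.066). It was called in middle tumors alone among the 3 sizes (log2 fold change 1.03 ± 0.29 SE, adjusted p = 0.016), and it was also called over all tumors without control lung 3, without middle tumor 3 and under scaling to 1 median (adjusted p = 0.035 to 0.048). Gsta1 stayed between 1.84 and 9.30 on the arrays with a value and was not tested. The Gsta3 promoter (chr1:21240335-21240584, plus strand) holds the antioxidant core 121 to 113 bases before the start.
Gsta3: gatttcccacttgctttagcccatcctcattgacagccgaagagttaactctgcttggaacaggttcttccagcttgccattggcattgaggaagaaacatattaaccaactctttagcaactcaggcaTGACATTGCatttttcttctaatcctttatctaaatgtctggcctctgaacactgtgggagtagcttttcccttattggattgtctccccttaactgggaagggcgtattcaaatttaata

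The mu class, encoded by neighbouring genes on chromosome 3, gave probe sets that disagreed within a gene. Probe sets with the suffix _f can bind several members of such a family, and those with _r were designed with relaxed rules, so that the mu-class values may mix genes. Gstm1 93543_f_at read 3093, 2708 and 2680.2 in small, 4848, 3207, 2867 and 6032 in middle and 2353, 3934 and 5085 in large tumors, against 5094, 5520.2, 4067 and 6466 in control lung, with 7 of 10 tumors below all controls. Its fall (log2 fold change -0.59 ± 0.22 SE, adjusted p = 0.04) lost the call in 13 of 27 alternatives, with 8 arrays that each ended it when left out (adjusted p = 0.052 to 0.13 over the 13). The second Gstm1 probe set was not called (log2 fold change 0.40 ± 0.26 SE, adjusted p = 0.24). Gstm2 93009_at averaged 1440.2 ± 341 (SD, n = 10) in tumors and 2033 ± 270.1 (SD, n = 4) in control lung (log2 fold change -0.54 ± 0.17 SE, adjusted p = 0.018), a fall lost without control lung 1 and under scaling to 1 median (adjusted p = 0.069 to 0.086), and the other Gstm2 probe set gave log2 fold change -0.18 ± 0.36 SE, adjusted p = 0.72. Both Gstm3 probe sets missed the call (log2 -0.63 and -0.10, adjusted p = 0.056 and 0.77). Gstm5 100631_r_at rose: it read 38.0, 147 and 135 in small, 203, 106, 123 and 90.9 in middle and 174, 299.7 and 203 in large tumors, against 78.8, 59.9, 60.0 and 65.3 in control lung, where 1 of 4 arrays reached 70 (log2 fold change 1.01 ± 0.23 SE, adjusted p = 0.0027). Its partner 100630_f_at gave log2 fold change -0.27 ± 0.21 SE, adjusted p = 0.33, 100629_at gave log2 fold change 0.16 ± 0.17 SE, adjusted p = 0.5, and 161722_f_at was not tested, as were both Gstm6 probe sets. The Gstm5 promoter (chr3:107895604-107895853, plus strand) holds an AP-1 site 176 to 170 and the antioxidant core 42 to 34 bases before the start.
Gstm5: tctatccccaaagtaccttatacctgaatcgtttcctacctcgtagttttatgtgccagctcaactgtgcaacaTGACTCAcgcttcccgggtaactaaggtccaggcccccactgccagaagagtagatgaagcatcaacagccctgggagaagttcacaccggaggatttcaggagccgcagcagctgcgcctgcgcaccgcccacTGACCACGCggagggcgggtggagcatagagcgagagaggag

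The theta and zeta classes rose. Gstt1, a theta transferase known for its action on small halogenated compounds, read 1480.2, 1385 and 1458 in small, 1904, 1773, 1109.9 and 1463 in middle and 1636, 1039 and 1472 in large tumors, against 733, 613, 808 and 727 in control lung. All tumors lay above all controls, at 2.04 times the control mean (log2 fold change 1.01 ± 0.15 SE, adjusted p = 8.7e-05). Gstt2, its neighbour on chromosome 10, averaged 406 ± 71.3 (SD, n = 10) in tumors and 235 ± 23.0 (SD, n = 4) in control lung (log2 fold change 0.77 ± 0.15 SE, adjusted p = 0.00098), likewise without overlap. Gstz1, the maleylacetoacetate isomerase of tyrosine breakdown, averaged 1153 ± 258 (SD, n = 9) in tumors and 753 ± 99.0 (SD, n = 4) in control lung (log2 fold change 0.60 ± 0.13 SE, adjusted p = 0.0028). Middle tumor 1 was highest for Gstz1 (1719), and the other 8 tumors with a value lay between 872 and 1297. Its call was lost where the values of 0 on middle tumor 3 were kept as deposited (log2 0.24, adjusted p = 0.81). Gstp1, the pi transferase of bronchial epithelium and of many carcinomas, averaged 2542 ± 385 (SD, n = 10) in tumors and 2375 ± 199 (SD, n = 4) in control lung and was not called (log2 fold change 0.08 ± 0.12 SE, adjusted p = 0.66; 95% interval -0.19 to 0.34). Gsto1, an omega transferase, was not called either (log2 fold change -0.15 ± 0.31 SE, adjusted p = 0.74).

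The microsomal transferase Mgst2 had the largest change of the members. This membrane enzyme conjugates glutathione to lipophilic compounds and can form leukotriene C4. It read 710.5, 867 and 1026 in small, 989, 1119, 335 and 555 in middle and 748, 664 and 513 in large tumors, against 78.1, 81.7, 81.0 and 70.1 in control lung. All tumors lay above all controls, with middle tumor 3 the lowest of them, while the controls lay just above 70. Means were 753 ± 249 (SD, n = 10) in tumors and 77.7 ± 5.33 (SD, n = 4) in control lung, a ratio of 9.69 (log2 fold change 3.21 ± 0.25 SE, adjusted p = 1.8e-07). The second Mgst2 probe set, 161865_r_at, did not exceed 28.9 on any array and was not tested. Its relatives behaved otherwise: Mgst1 averaged 2019 ± 339.9 (SD, n = 10) in tumors and 1647 ± 117 (SD, n = 4) in control lung and was called only in middle tumors (log2 fold change 0.26 ± 0.11 SE, adjusted p = 0.073 over all tumors), and Mgst3 96258_at was not called (log2 fold change -0.21 ± 0.19 SE, adjusted p = 0.39). The other Mgst3 probe set, 99576_at, read 0.49 to 5.20 and was not tested. Mgst1 was called higher over all tumors in 3 alternatives, without large tumor 2, under scaling to 1 median and with the methods' unpaired test at p under 0.05. The Mgst2 promoter (chr3:51660929-51661178, plus strand) holds an AP-1 site 52 to 46 bases before the start.
Mgst2: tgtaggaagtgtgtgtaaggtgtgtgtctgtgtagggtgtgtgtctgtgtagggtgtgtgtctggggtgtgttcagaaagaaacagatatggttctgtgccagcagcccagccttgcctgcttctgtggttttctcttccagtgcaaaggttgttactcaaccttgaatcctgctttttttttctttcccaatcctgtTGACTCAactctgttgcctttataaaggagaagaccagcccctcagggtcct

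**Figure D3:**
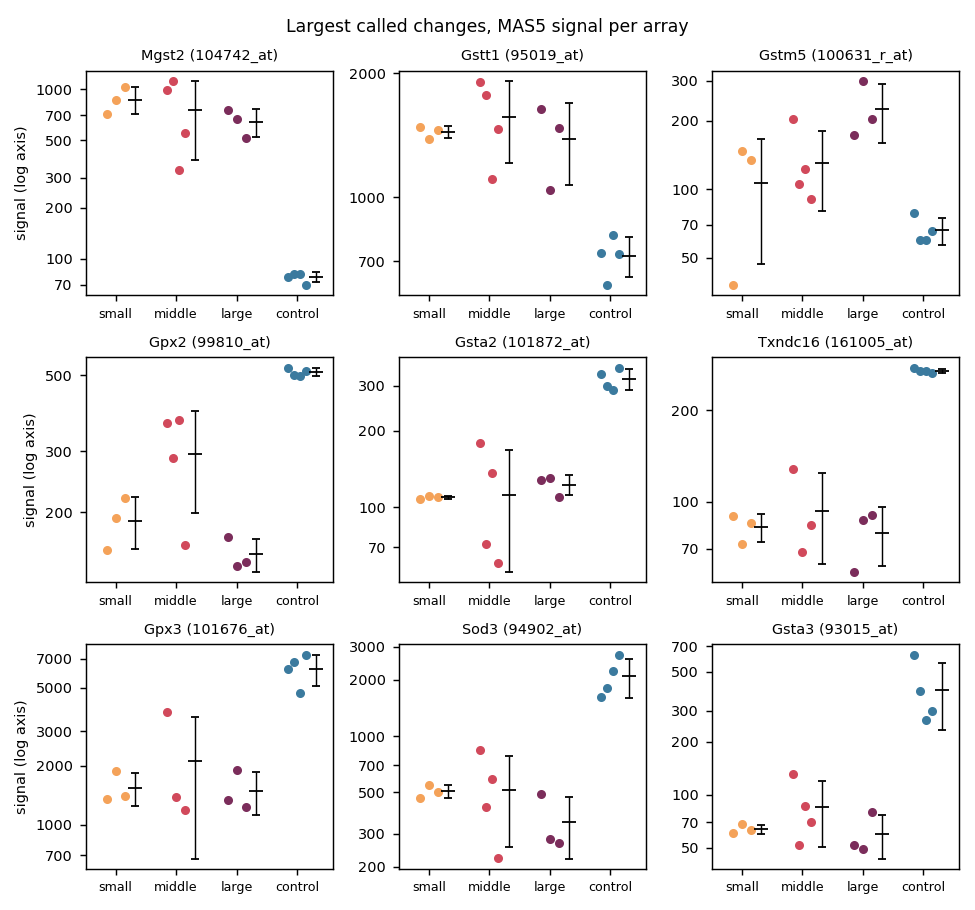
MAS5 signal (log axis) on each array for the 9 member probe sets with a called log2 fold change of at least 1 in either direction, by tumor size and in control lung, with mean ± SD beside the points. Gpx3 and Txndc16 lack a value on middle tumor 3. Tumors and controls are apart in each panel except Gstm5, where 1 small tumor (38.0) lies below the controls.

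Of the glutathione peroxidases, the secreted and the gastrointestinal forms fell most. Gpx3, the plasma form, read 1349, 1869 and 1398 in small, 3775, 1381 and 1187 in middle and 1332, 1911 and 1232 in large tumors, against 6204, 6720.5, 4673 and 7330.1 in control lung. The tumor mean was 0.275 times the control mean (log2 fold change -1.94 ± 0.26 SE, adjusted p = 4.9e-05), and middle tumor 1 stood above the other tumors. Gpx2, first known from gut epithelium, read 155, 192 and 220.0 in small, 362, 287, 370.4 and 161 in middle and 169.6, 139.7 and 143 in large tumors, against 525, 499, 496 and 515 in control lung (log2 fold change -1.35 ± 0.19 SE, adjusted p = 6.5e-05). All tumors were below all controls, and 3 of the 4 middle tumors were above all tumors of the other sizes. Gpx4, which reduces lipid hydroperoxides in membranes, averaged 467 ± 61.0 (SD, n = 10) in tumors and 626 ± 66.5 (SD, n = 4) in control lung (log2 fold change -0.44 ± 0.12 SE, adjusted p = 0.0074), and its call was lost under scaling to 1 median (adjusted p = 0.053). Gpx1, the cytosolic form, was not called (log2 fold change -0.16 ± 0.17 SE, adjusted p = 0.5), and Gpx5 and Gpx7 were not tested.

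Among dismutases and catalase, a single gene was called. Sod3, the extracellular superoxide dismutase that binds to lung matrix and vessel walls, read 466, 551 and 504 in small, 838, 418, 592 and 223 in middle and 493, 281 and 269 in large tumors, against 1610.2, 1813, 2234 and 2728 in control lung. The highest tumor lay below the lowest control, and the tumor mean was 0.221 times the control mean (log2 fold change -2.26 ± 0.28 SE, adjusted p = 1.4e-05). Beside this fall, smooth muscle markers summed to 1977 to 2847 in tumors and 6389 to 7764 in control lung, and fibroblast and matrix markers to 4017 to 12830 in tumors and 20897 to 25160 in control lung. Endothelial, alveolar type I, erythroid and cardiac muscle markers mostly fell too. The part of any of these cell types in the Sod3 values was not tested. Cytosolic Sod1 averaged 1463 ± 401 (SD, n = 10) in tumors and 1584 ± 175 (SD, n = 4) in control lung and mitochondrial Sod2 gave log2 fold change 0.33 ± 0.17 SE, adjusted p = 0.13, neither called (log2 fold change -0.19 ± 0.16 SE, adjusted p = 0.36 for Sod1). Both catalase probe sets were likewise not called (log2 0.22 and 0.05, adjusted p = 0.30 and 0.81).

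All 3 peroxiredoxin genes among the members rose. Prdx4, the form of the endoplasmic reticulum, read 559, 722 and 687 in small, 452, 736, 761 and 627 in middle and 716, 585 and 459.8 in large tumors, against 333, 281, 325 and 337 in control lung (log2 fold change 0.96 ± 0.15 SE, adjusted p = 0.00016). Prdx2 100331_g_at, the cytosolic form that red cells hold in large amounts, read 2262, 2298 and 2441 in small, 1706, 2668, 1889 and 2189 in middle and 2543, 2468 and 1917 in large tumors, against 1398, 1323, 1411 and 1285 in control lung (log2 fold change 0.72 ± 0.12 SE, adjusted p = 0.00023). Neither gene overlapped between tumors and controls. Erythroid markers summed to 1598 to 7209 in tumors and 11875 to 22614 in control lung, and the part of red cells in the Prdx2 values was not tested. The remaining Prdx2 probe sets were not tested, 100330_at at 0.75 to 3.00 and 99608_at at 15.8 to 124. Prdx3, the mitochondrial form, averaged 733 ± 144 (SD, n = 10) in tumors and 495 ± 89.3 (SD, n = 4) in control lung, with 9 of 10 tumors above all controls (log2 fold change 0.57 ± 0.18 SE, adjusted p = 0.017). Without control lung 4 its call was lost (log2 0.44, adjusted p = 0.074). The Prdx4 promoter (chrX:155338461-155338710, minus strand) holds an E-box 52 to 47 bases before the start.
Prdx4: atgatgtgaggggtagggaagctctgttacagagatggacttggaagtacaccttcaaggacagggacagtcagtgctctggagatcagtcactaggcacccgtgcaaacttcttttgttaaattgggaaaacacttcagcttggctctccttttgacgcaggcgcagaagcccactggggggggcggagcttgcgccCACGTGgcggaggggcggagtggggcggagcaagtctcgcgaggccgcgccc

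Thioredoxins and their reductases rose, with log2 fold changes of 0.44 to 0.66 for the 4 called. Txn1, the cytosolic thioredoxin, read 3796, 3675 and 4158 in small, 3351, 3977, 2999 and 3097 in middle and 4024, 3534 and 2898 in large tumors, against 2285, 2549.9, 2489 and 2118 in control lung. All tumors lay above all controls (log2 fold change 0.59 ± 0.11 SE, adjusted p = 0.0008). Its reductase Txnrd1, a selenoprotein, averaged 726 ± 136 (SD, n = 10) in tumors and 456 ± 83.3 (SD, n = 4) in control lung, also without overlap (log2 fold change 0.65 ± 0.15 SE, adjusted p = 0.0032). Of the mitochondrial pair, Txn2 averaged 962 ± 134 (SD, n = 10) in tumors and 627 ± 196 (SD, n = 4) in control lung, where control lung 4 reached 919.8 and the other 3 lay between 504 and 553 (log2 fold change 0.66 ± 0.15 SE, adjusted p = 0.0022). Txnrd2 averaged 102 ± 12.5 (SD, n = 9) in tumors and 70.8 ± 13.4 (SD, n = 4) in control lung, where only 1 of 4 arrays reached 70 (log2 fold change 0.44 ± 0.12 SE, adjusted p = 0.0095). Txnrd3 161284_r_at, for a form best known from testis, was not called (log2 fold change 0.09 ± 0.21 SE, adjusted p = 0.76). The other Txnrd3 probe set, 161043_r_at, read 8.64 to 53.6 and was not tested. The Txnrd1 promoter with the antioxidant core, on the minus strand 92 to 84 bases before the start, is that at chr10:82858956-82859205, plus strand.
Txnrd1: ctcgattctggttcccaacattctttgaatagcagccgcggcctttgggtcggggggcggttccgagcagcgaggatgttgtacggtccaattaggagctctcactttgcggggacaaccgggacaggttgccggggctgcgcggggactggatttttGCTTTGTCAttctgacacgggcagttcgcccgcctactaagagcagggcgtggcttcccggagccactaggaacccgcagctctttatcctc

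**Figure D4:**
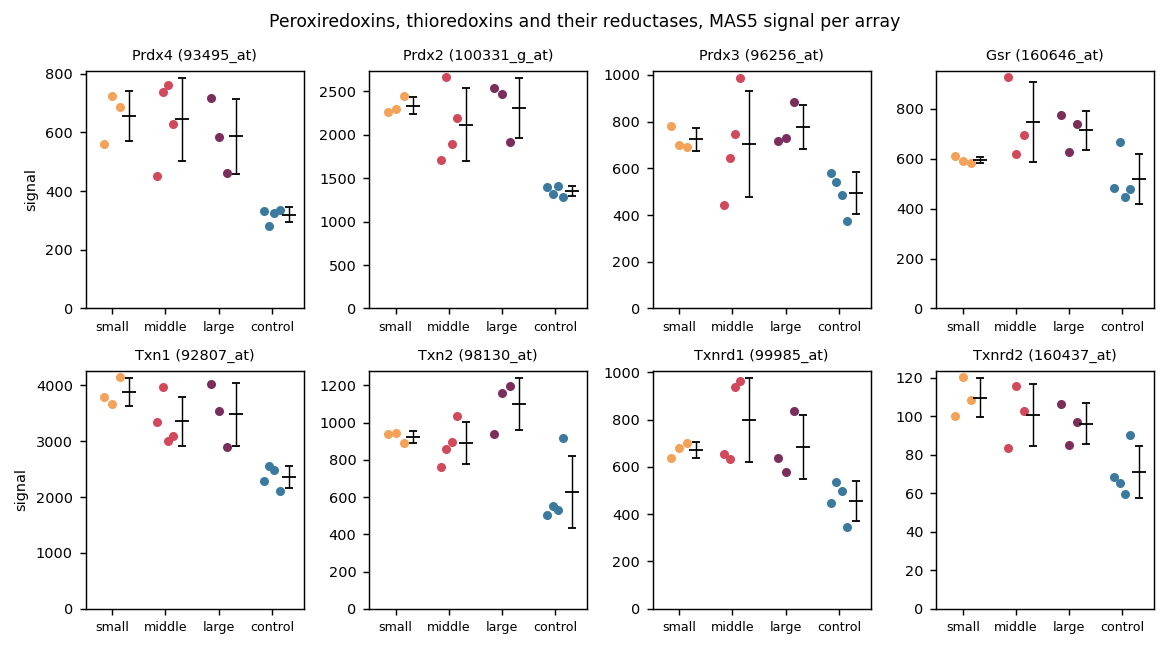
MAS5 signal on each array (linear axis from 0) for the peroxiredoxins, Gsr, the thioredoxins and their reductases, by tumor size and in control lung, with mean ± SD beside the points. Gsr and Txnrd2 lack a value on middle tumor 3. Tumors are above all controls for Prdx4, Prdx2, Txn1 and Txnrd1.

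The other Txn symbols name proteins with a thioredoxin fold or partners of thioredoxin. Txndc16, a glycoprotein of the endoplasmic reticulum, read 89.6, 72.4 and 84.8 in small, 128, 68.4 and 83.5 in middle and 58.8, 87.0 and 90.6 in large tumors, against 276, 269, 269 and 265 in control lung. The 4 controls lay close together and above all tumors (log2 fold change -1.67 ± 0.16 SE, adjusted p = 2.1e-06). Txndc5, a disulfide isomerase of the same compartment, rose (log2 fold change 0.57 ± 0.16 SE, adjusted p = 0.0093), with means of 967 ± 174 (SD, n = 10) in tumors and 653 ± 113 (SD, n = 4) in control lung. Txnl4a, a component of the spliceosome, averaged 863 ± 271 (SD, n = 10) in tumors and 451 ± 125 (SD, n = 4) in control lung (log2 fold change 0.91 ± 0.26 SE, adjusted p = 0.011), with 8 of 10 tumors above all controls. Txnip, which binds and inhibits thioredoxin, averaged 2105 ± 534 (SD, n = 9) in tumors and 1984 ± 249 (SD, n = 4) in control lung and was not called (log2 fold change 0.05 ± 0.19 SE, adjusted p = 0.85). The other Txnip probe set, 160548_at, was not called either. Txnl1, Txndc9, Txndc12 and Txndc17 were not called over all tumors (log2 -0.38 to 0.34), and Txndc12 was called lower in large tumors (log2 fold change -0.67 ± 0.23 SE, adjusted p = 0.034).

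Neither heme oxygenase was called, and Nqo1 was not tested. Hmox1, the inducible heme oxygenase, read 1638, 822 and 1007 in small, 1181, 1247 and 504 in middle and 879, 814 and 626 in large tumors, against 744, 761, 737 and 1051 in control lung (log2 fold change 0.17 ± 0.24 SE, adjusted p = 0.61). Hmox2, the constitutive form, gave log2 fold change 0.13 ± 0.14 SE, adjusted p = 0.48. Nqo1, the quinone reductase, read 8.05 to 78.7 on 94350_f_at, with a single array above 70, and 13.2 to 67.6 on 94351_r_at.

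Each tumor size was then set against control lung. In small tumors 11 members rose and 10 fell (18.7% and 16.3% of all probe sets tested), in middle tumors 13 and 6 (14.6% and 16.2%), and in large tumors 12 and 9 (19.2% and 17.8%). Without small tumor 2 the rises in small tumors numbered 6 (13.8% of all probe sets tested), and without small tumor 3 they numbered 7 (14%). In all 3 sizes 8 members rose (Mgst2, Gstt1, Gstt2, Prdx2, Prdx4, Txn1, Txn2 and Txnrd1) and 6 fell (Gsta2, Gsta3, Gpx2, Gpx3, Sod3 and Txndc16) of the 53 tested, while of all probe sets tested 11.4% rose and 12.8% fell in all 3. Mgst2 stood at a log2 fold change of 3.47 in small, 3.12 in middle and 3.03 in large tumors, and Sod3 at -2.02, -2.15 and -2.62. Called in some sizes and not over all tumors were Gsta4 and Mgst1, higher in middle tumors, Gstm3 97681_f_at, lower in small tumors, and Txndc12, lower in large tumors.

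**Figure D5:**
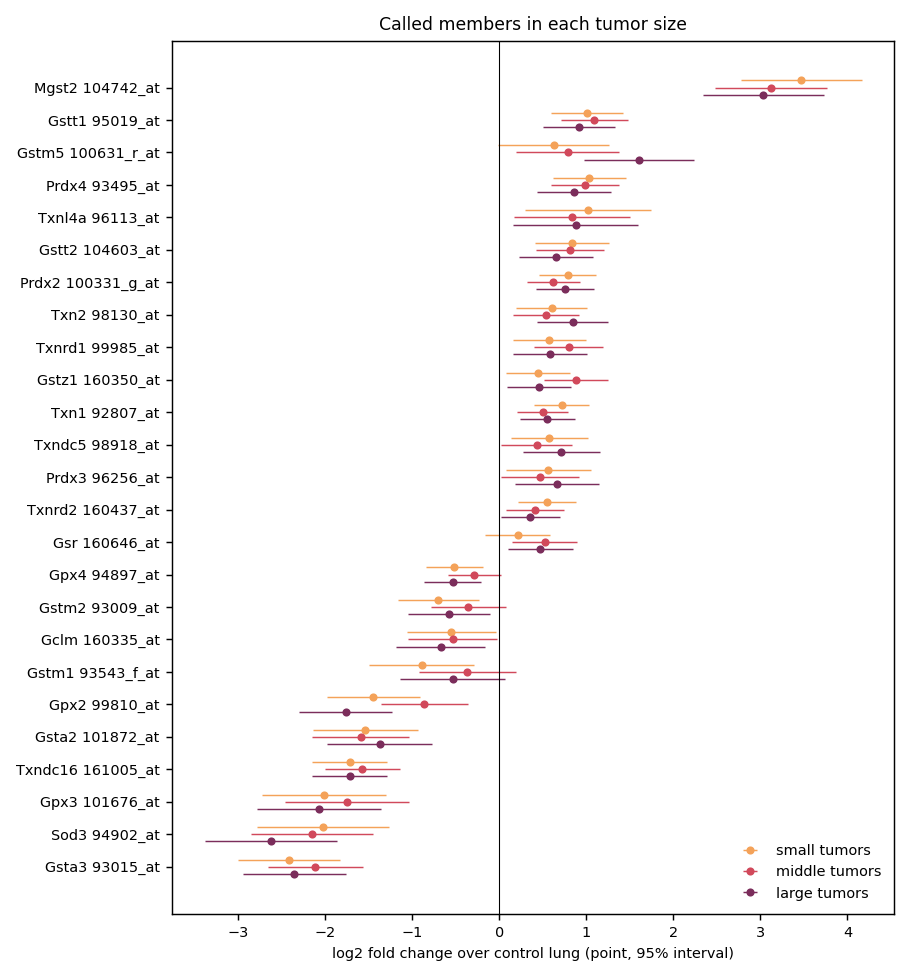
Log2 fold change over control lung in small, middle and large tumors for the 25 members called over all tumors, with 95% intervals, ordered by their value over all tumors. Mgst2 lies above 3 in each size, and Gpx2 stands at -1.44 in small, -0.86 in middle and -1.76 in large tumors.

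None of the 8127 probe sets tested was called between 2 tumor sizes by limma in the main setting (0% in each pair). At an unadjusted p under 0.05 there were 650 for large against small, 503 for middle against small and 812 for large against middle tumors. Members numbered 3, 5 and 7 of these. With the methods' unpaired test, adjusted, 1, 0 and 3 probe sets were called, and limma with array weights called 49 for large against small tumors, none of them a member. The other limma settings with all arrays called 0 to 5 probe sets in a pair, again no member. The member with the lowest adjusted p was Gpx2 in large against middle tumors (log2 -0.90, 95% interval -1.44 to -0.37, unadjusted p = 0.0028, adjusted p = 0.26 in limma). The 95% interval of a difference between sizes reached 0.48 to 0.50 to either side at the median of the members on the log2 scale, and 1.05 at most. For Mgst2 the interval of large against small tumors was -1.18 to 0.31.

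Genes around these enzymes were read from 8 lists, whose median log2 fold changes over all tumors lay between -0.93 and 0.44, against 0.03 over all probe sets tested. Called in either direction were 43.4% of all probe sets tested, which is the background for each count. Of 6 tested genes of NRF2 and its partners none rose and 2 fell, Mafk (log2 -1.43, adjusted p = 6.2e-06) and Nfe2l1 (-0.62, 0.0032), while Nfe2l2, which encodes NRF2 itself, averaged 900.9 ± 133 in tumors and 1040.1 ± 92.0 in control lung (SD, n = 10 and 4) without a call (-0.23, 0.16). Other NRF2 target enzymes were split, 4 higher and 5 lower of 20, with Me1 (1.52, 2.0e-06) and Tkt (1.02, 0.00095), which serve NADPH supply and the pentose phosphate pathway, among the rises, and the aldehyde dehydrogenases Aldh1a1 (-2.94, 5.7e-06) and Aldh3a1 (-2.19, 7.9e-05) among the falls. Aldh1a1 is also one of the club cell markers used here. Of 11 other glutathione enzymes 3 rose and 2 fell, and they include 2 relatives of Mgst2. Of these, Ptges, a glutathione-dependent prostaglandin E synthase, rose (1.10, 0.0017), and Ltc4s, the leukotriene C4 synthase, fell (-0.64, 0.0035). Among the others, Lancl1 rose (0.64, 0.0075) and the dipeptidase Dpep1 fell (-2.78, 5.9e-05). All these values are log2 fold changes over all tumors with limma's adjusted p.

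Of 8 tested genes of cysteine and methionine supply 3 rose and 2 fell. Cdo1, which diverts cysteine into taurine, averaged 94.2 ± 54.9 in tumors and 1430 ± 380.5 in control lung (SD, n = 10 and 4; log2 -3.93 ± 0.28 SE, adjusted p = 6.8e-08 in limma), and Slc1a4 fell by 1.10 on the log2 scale. Shmt1, of folate metabolism, averaged 538 ± 188 in tumors and 67.4 ± 8.42 in control lung (SD, n = 10 and 4), under the limit of 70, and rose by 2.84 on the log2 scale, and Ahcy, which clears S-adenosylhomocysteine, by 1.24. Both metallothioneins Mt1 and Mt2, small cysteine-rich metal binders, rose: Mt1 averaged 4057 ± 1074 in tumors and 636 ± 119 in control lung (SD, n = 10 and 4; log2 2.66 ± 0.21 SE, adjusted p = 2.0e-07) and Mt2 gave 2.65 ± 0.20 SE (adjusted p = 9.4e-08), and with Mt3 3 of 7 metal binding genes rose and none fell. Among 7 producers of superoxide and peroxide none rose and 5 fell, led by Xdh (log2 -1.29) and the phagocyte oxidase subunit Cybb (-1.07). Of 11 genes of methionine and disulfide repair 3 rose and 2 fell, with the disulfide isomerases Pdia4 (1.22) and Pdia6 (1.06) higher and Qsox1 (-1.86) and Sesn1 (-0.99) lower. Of 7 genes of selenoprotein synthesis and other selenoproteins Sephs2, which makes selenophosphate, rose (1.38), and Selenok (-0.76) and Selenot (-0.45) fell.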

How the data were processed

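The authors hybridised RNA to Affymetrix Murine Genome U74v2 arrays, computed MAS5 signals and scaled each array to a target of 250, and the deposited values are these linear intensities per probe set. MAS5 subtracts mismatch probes, so signals near the limit are noisy, and scaling makes values relative to the other transcripts of the array. Gene symbols came from the platform annotation, and all 67 member probe sets matched RefSeq (GRCm38.p6) by gene ID with the same symbol. Another 2 probe sets with several symbols, among them Prdx1, were not members.

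Signals below 1e-06, all on middle tumor 3, were treated as missing. The study took 70 as the lowest signal of an expressed gene. Lower signals were raised to 70 before log2 was taken, and the 8127 probe sets with at least 70 on at least 3 arrays were tested. Means of the 4 groups were estimated with limma 3.58.1 under R 4.3.3 (empirical Bayes with a trend), and 7 comparisons were read from it with Benjamini-Hochberg adjustment over all probe sets tested. SE is the standard error of the fitted log2 fold change, and SD is over arrays of deposited signals. The script was tested on simulated data. Control probe sets, 66 in number, were left out, and detection and change calls were not used here. The precision is limited by 3 or 4 arrays per group.

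The members and gene lists were chosen with earlier results of these data known. Named were members called over all tumors with a log2 fold change of at least 1 in size, members called between sizes, the probe set with the highest mean of each family, and all probe sets of genes whose probe sets disagree. For each list the 2 largest called rises and falls were named. The alternatives were no floor or one of 35, quantile or median scaling, no filter or one of 7 arrays, 1 probe set per symbol, a robust spread, only the groups compared, a replicate block, weights per array, an added limit of 3-fold, the methods' unpaired test, values of 0 kept, and each array left out.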

Additional observations from a re-analysis of the deposited data

Results flagged for a closer look

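Among the named members, a sample far from the rest of its group was looked for in the 4 control lungs, the 4 middle tumors and all tumors together, and 8 of 85 such groups held one. Chance alone would mark about 5% of them. Middle tumor 1 was the far sample in 5. It read 3775 for Gpx3 (the other tumors 1187 to 1911), 132 for Gsta3 (49.4 to 86.1), 128 for Txndc16 (58.8 to 90.6) and 1719 for Gstz1 (872 to 1297), and for Txndc5 it was low among the middle tumors, at 596 (950.5 to 1008). On the same array club cell markers summed to 20014 and ciliated cell markers to 1829, each the highest of the 10 tumors, and their part in these values was not tested. Without middle tumor 1 the comparison of all tumors called 16 members higher and 11 lower (24.3% and 23.1% of all probe sets tested). Control lung 4 was far from the other controls for Txn2 (919.8, others 504 to 553) and Hmox1 (1051, others 737 to 761), and control lung 2 for Gsr (668, others 448 to 483).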

How the results depend on the processing

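There were 27 alternatives for the comparison of all tumors other than the added limit of 3-fold. Of the 25 members called over all tumors, 18 kept the call in each of these that tested them. The other 7 lost it in at least 1 (Gstm1, Gsr, Gclm, Gstm2, Gpx4, Gstz1 and Prdx3). With 1 probe set per symbol the called Gstm5 100631_r_at was not tested. The probe set kept for Gstm5 there was 100630_f_at, which has higher signals and was not called in the main test. Gstz1 lost its call where values of 0 were kept as deposited (log2 0.24, adjusted p = 0.81). The limit of 3-fold left 1 member higher and 4 lower over all tumors (1.87% and 4.21% of all probe sets tested), 1 and 4 in small (2.17% and 4.25%), 1 and 2 in middle (1.51% and 4.16%) and 2 and 5 in large tumors (2.46% and 5.25%). Scaling to 1 median left 6 lower both over all tumors (17.2% of all probe sets tested) and in small tumors (13.3%). The methods' unpaired test, adjusted, called 7 higher in middle tumors (6.36%). At an unadjusted p under 0.05 that test marked 1 member lower in large against small and 3 higher in middle against small tumors. In large against middle tumors it marked 1 member higher and 4 lower. Of all 8127 probe sets tested it marked 783, 341 and 461 in these pairs, in the same order. With single arrays left out, the members called higher in small tumors ranged from 6 without small tumor 2 to 14 without middle tumor 1. Of all probe sets tested 13.8% and 20.5% were higher in these 2 settings. Members called lower in large against middle tumors ranged from 0 to 1, the 1 without middle tumor 4. The cause was not tested. Direction turned for members without a call. Hmox1 stood at -0.14 with values of 0 kept. Txnip stood at -0.35 with values of 0 kept, at -0.040 with array weights and between -0.043 and 0.12 with single arrays left out. The replicate numbers pair nothing in the labels, and 1 of 19 same-numbered pairs of arrays correlated above 0.1 in their deviations, so the numbers were not taken as pairs. These correlations ran from -0.24 to 0.11 for the same number and from -0.37 to 0.52 for different numbers. The highest was that of middle tumor 4 with large tumor 3, and its cause was not tested. With the replicate block 14 members were higher and 9 lower over all tumors (21.2% and 19.9% of all probe sets tested). The 4 control lungs limit all comparisons with control lung, and signals near 70 (Gsta3 and Txndc16 in tumors, Mgst2, Gstm5 and Txnrd2 in control lung) limit the size of those changes.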

Other observations

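The values listed at 0 on middle tumor 3 followed the numbering of the probe sets. All 2445 probe sets with a number of 160000 or more were at 0 on that array, and of the 9977 others 680 were (6.82%). Of the members, all 20 numbered from 160000 were among them, with 1 other, Gpx3. On the other 13 arrays no value was listed at 0. Where these values were kept as deposited, the log2 fold change of Gsr over all tumors was 0.12 in place of 0.40. These 21 member probe sets therefore rest on 3 middle tumors.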
